A study of Homo sapiens with 16 samples.

Results

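Homologous recombination repairs broken or stalled chromosomes by copying an intact sister, and the Fanconi pathway repairs crosslinks between the DNA strands and hands the resulting breaks to it. In outline, the break is sensed and its ends are cut back, BRCA2 and a set of mediator proteins prepare the exposed strand, motor proteins help it invade the sister, and helicases and nucleases take the joined molecules apart. In the Fanconi branch a multi-subunit core complex attaches ubiquitin to FANCD2 and FANCI. Many of these genes are transcribed mainly in proliferating cells as they enter S phase, under E2F transcription factors. The genes described here are 39 members of these pathways, chosen by name, of 61906 genes in the deposited tables. Each matched 1 gene identifier, and together they hold 876 of the 251295 listed transcripts.

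The levels come from RNA-seq of 2 established human cell lines. HEK-293T derives from embryonic kidney and expresses the large T antigen of SV40, and HT-1080 derives from a fibrosarcoma. Cells received 20 nM of an siRNA against HNRNPH1 (siHNRNPH1), which encodes an RNA-binding splicing regulator, or of a negative control siRNA (siNegative), and RNA was taken after 48 h. Each of the 4 groups has 3 short-read libraries and 1 pool of full-length cDNA (IsoSeq). The labels number the replicates without saying whether they are separate cultures, so p-values measure the spread between these libraries, which may be technical. Transfected cells were harvested as a whole population, so fewer cells of a kind and less RNA per cell cannot be told apart.

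Library totals ran from 107745653 to 121026216 expected counts in HEK-293T. The HT-1080 libraries were shallower, with 27304426 to 32653160. Levels are given as CPM, the expected count of a gene scaled to a library total of 1000000. Log2 fold changes come from edgeR's quasi-likelihood fit, which also rescales libraries, and a gene is called where its adjusted p over all genes tested is under 0.05. HNRNPH1 itself stood at 1107, 1105 and 1121 CPM with siNegative and at 234, 376 and 394 CPM with siHNRNPH1 in HEK-293T. In HT-1080 it stood at 635, 606 and 617 CPM and at 231, 231 and 228 CPM. Its log2 fold change was -1.76 (SE 0.20, edgeR adjusted p = 0.00939) and -1.49 (SE 0.04, edgeR adjusted p = 6.76e-09). Without replicate 1 of siHNRNPH1 the HEK-293T value was -1.58 (SE 0.03). Its call in HEK-293T was lost without siNegative replicate 1, 2 or 3 (edgeR adjusted p of 0.0743 to 0.0762), without siHNRNPH1 replicate 2 (0.0514) and with the replicate number as a block (0.0665). All 7 HT-1080 markers had a higher mean CPM in the HT-1080 than in the HEK-293T siNegative libraries. Of the 7 HEK-293T markers 5 were higher in HEK-293T, CDH2 by less than its spread, whereas the keratins KRT8 (5.74 against 404.8 CPM) and KRT18 (45.5 against 346.5 CPM) were higher in HT-1080, and the list's summed CPM was 441.7 to 445.6 in HEK-293T and 871.9 to 951.6 in HT-1080. Replicate 1 of HEK-293T siHNRNPH1 stands apart: its log2 CPM correlated with replicates 2 and 3 at a Pearson r of 0.965 and 0.962 across genes, against 0.999 between those replicates. The counts of called genes in HEK-293T are therefore given with and without it.

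In HT-1080 most of the 39 members were lower after knockdown: 35 fell, 2 rose and 2 were not called. Among all 16145 genes tested, 32.6% were called lower and 32.7% higher. A log2 fold change of -1 or below was reached by 21 members, against 6.87% of all genes. The median log2 fold change of the members was -1.06 and that of all genes 0.01. In 35 members every siHNRNPH1 library lay below every siNegative library, as did 30.6% of all genes, and in 3 every one lay above, as did 39.9%. In SLX4 the groups overlapped.

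**Figure D1:**
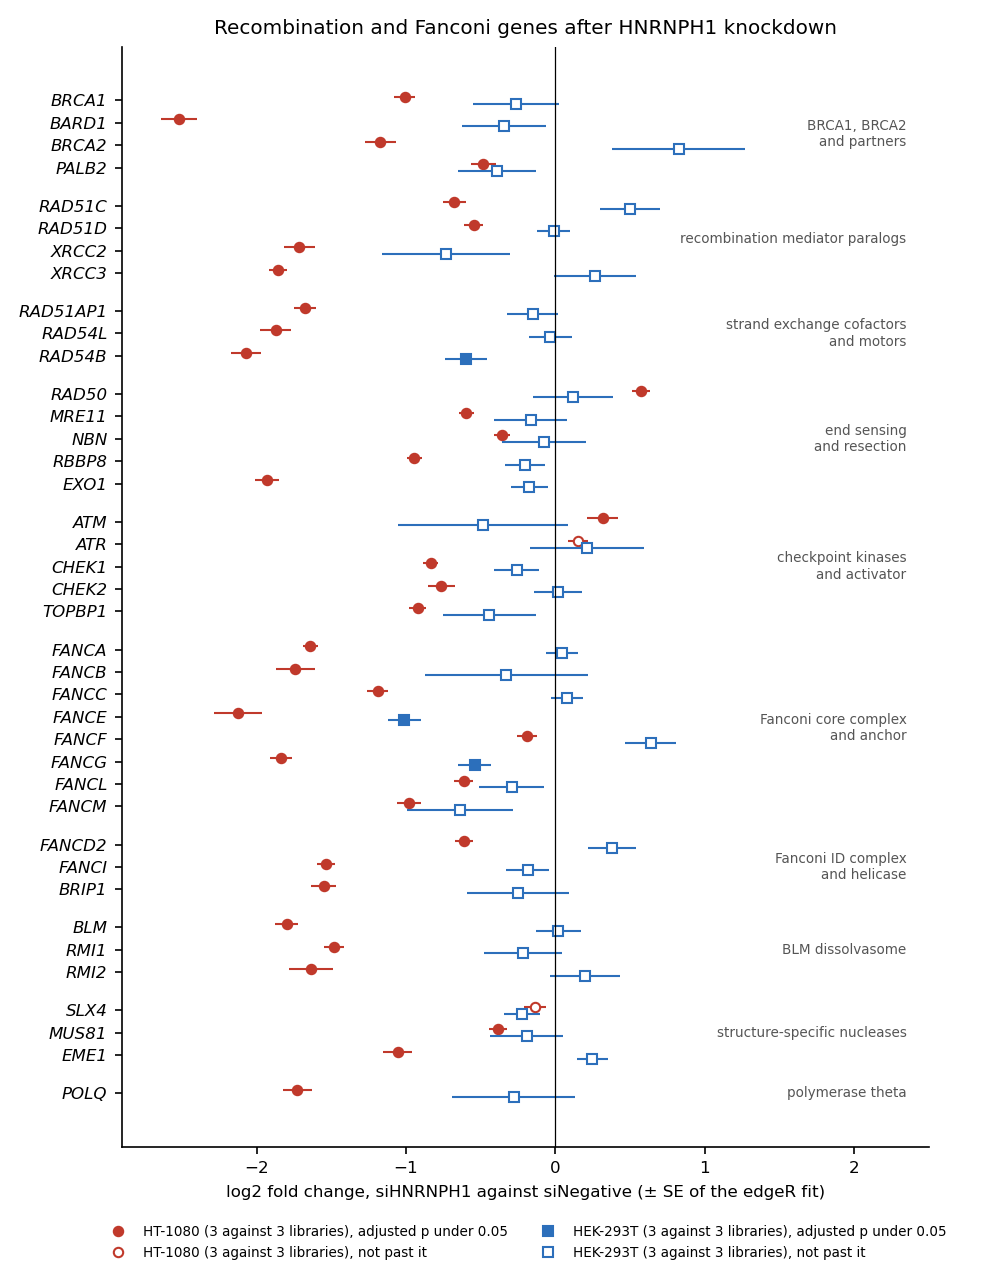
Log2 fold change of each member (siHNRNPH1 against siNegative) in HT-1080 (red circles) and HEK-293T (blue squares), ordered by role. Bars are the SE of the edgeR fit over 3 against 3 libraries, and filled symbols have an adjusted p under 0.05. In HT-1080 the values run from -2.52 for BARD1 to 0.57 for RAD50, and in HEK-293T FANCE, FANCG and RAD54B are called.

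The BRCA group contained the steepest fall. BARD1 (ENSG00000138376.11), the partner that makes BRCA1 an active ubiquitin ligase, stood at 14.4, 11.8 and 13.8 CPM with siNegative and at 2.54, 2.70 and 2.04 CPM with siHNRNPH1 in HT-1080. The siHNRNPH1 libraries were all far below the controls, a log2 fold change of -2.52 (SE 0.12, edgeR adjusted p = 1.31e-07). BRCA1 (ENSG00000012048.24) went from 29.5, 26.6 and 31.4 CPM to 15.3, 15.1 and 15.1 CPM, a log2 fold change of -1.01 (SE 0.07, edgeR adjusted p = 1.09e-06). BRCA2 (ENSG00000139618.18), the central mediator of strand invasion, went from 31.4, 23.9 and 30.9 CPM to 13.7, 13.8 and 12.5 CPM, a log2 fold change of -1.17 (SE 0.10). PALB2, which bridges BRCA1 and BRCA2, moved least of the 4 at -0.48.

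The mediator paralogs RAD51C, RAD51D, XRCC2 and XRCC3 all fell in HT-1080, and by unequal amounts. XRCC2 and XRCC3, which belong to different paralog complexes, changed by -1.71 and -1.86, while RAD51C and RAD51D changed by -0.68 and -0.55. RAD51D went from 20.5, 18.3 and 19.2 CPM to 13.6, 13.9 and 14.1 CPM. XRCC3 (ENSG00000126215.14) stood at 52.6, 52.4 and 50.9 CPM with siNegative and at 14.2, 15.9 and 14.9 CPM with siHNRNPH1. XRCC2 (ENSG00000196584.4) went from 26.6, 23.8 and 25.7 CPM to 7.16, 9.52 and 7.55 CPM. In both genes the groups were wide apart.

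The proteins that assist strand invasion moved together. RAD51AP1, which stimulates the invasion step, changed by -1.68 (SE 0.07), from 25.5, 25.7 and 24.5 CPM to 8.97, 7.66 and 8.18 CPM. The DNA translocase RAD54L changed by -1.87 (SE 0.10), from 21.9, 22.1 and 19.7 CPM to 6.27, 6.77 and 5.16 CPM. Its relative RAD54B changed by -2.07 (SE 0.10), from 18.7, 15.5 and 16.0 CPM to 4.16, 4.37 and 3.92 CPM. These 3 genes had a median of -1.87, the lowest of the role groups with more than 1 gene.

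End sensing and resection split. EXO1 (ENSG00000174371.17), the exonuclease of long-range resection, went from 24.5, 22.9 and 26.96 CPM to 7.09, 6.74 and 6.64 CPM, a log2 fold change of -1.93 (SE 0.08, edgeR adjusted p = 4.67e-08). RBBP8 (CtIP), which starts resection, changed by -0.94. Within the complex that binds the break, MRE11 and NBN changed by -0.59 and -0.36, NBN from 66.1, 59.4 and 64.8 CPM to 53.6, 51.2 and 50.8 CPM. Its remaining subunit, RAD50 (ENSG00000113522.14), rose from 18.1, 16.6 and 16.3 CPM to 26.1, 26.8 and 26.6 CPM, a log2 fold change of 0.57 (SE 0.06, edgeR adjusted p = 2.01e-05). RAD50 was therefore higher in every siHNRNPH1 library while its partner subunits were lower.

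The damage kinases at the top of the checkpoint also differed from their effectors. ATM stood at 135, 97.2 and 133 CPM with siNegative and at 161, 154 and 162 CPM with siHNRNPH1, a log2 fold change of 0.32 (edgeR adjusted p = 0.021). ATR stood at 109.6, 94.8 and 115 CPM and at 125, 122 and 126 CPM, with a log2 fold change of 0.15 that was not called (edgeR adjusted p = 0.0587). In both genes replicate 2 of siNegative was the lowest library. Across all genes its log2 CPM correlated with siNegative replicates 1 and 3 at a Pearson r of 0.996 each, against 0.998 between those replicates. The chi-square per degree of freedom was 16.2 and 15.8 for its pairs with them, against 1.74 between them, so this control stood apart. The effector kinases CHEK1 and CHEK2 fell, with log2 fold changes of -0.83 and -0.76, and TOPBP1, an activator of ATR, with -0.92. CHEK1 went from 46.2, 43.8 and 44.5 CPM to 25.9, 26.9 and 26.1 CPM. TOPBP1 went from 150.5, 131 and 152 CPM to 79.4, 79.9 and 80.5 CPM.

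**Figure D2:**
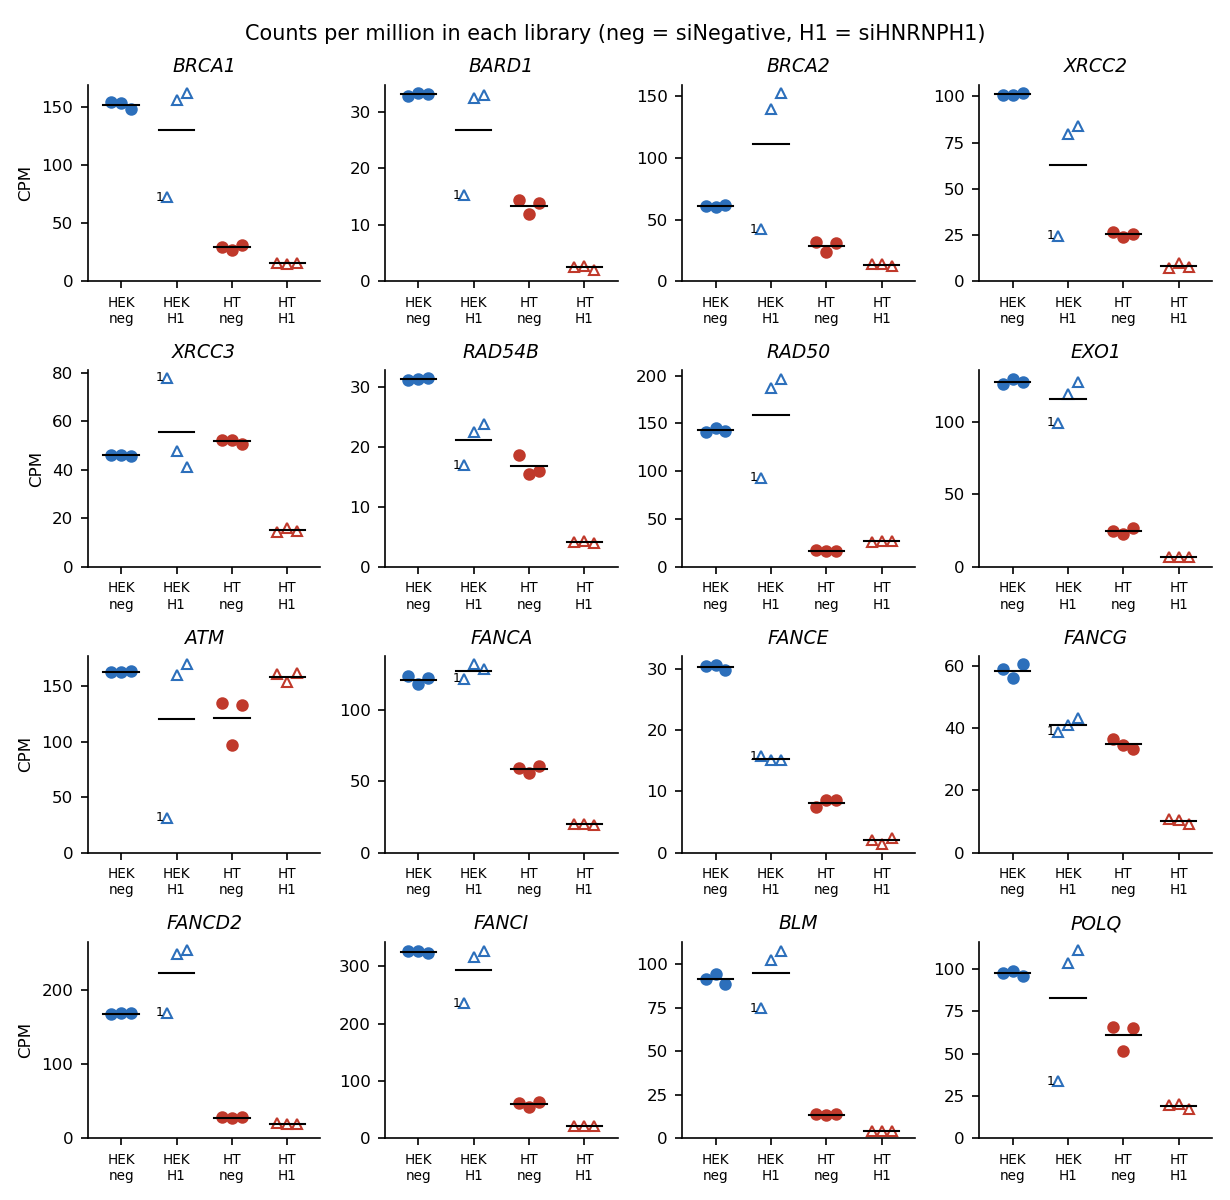
CPM of 16 members in each of the 12 short-read libraries, with each y axis starting at 0. Circles are siNegative, triangles siHNRNPH1, blue HEK-293T, red HT-1080, black bars the group mean, and the digit 1 marks replicate 1 of HEK-293T siHNRNPH1. In HT-1080 all 3 red triangles lie below the red circles except for RAD50 and ATM, and the marked HEK-293T library often lies far from the other triangles.

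All 8 genes of the Fanconi core complex and its anchor fell in HT-1080, with a median of -1.41. FANCE (ENSG00000112039.6), the subunit that contacts FANCD2, went from 7.47, 8.53 and 8.52 CPM to 2.02, 1.47 and 2.46 CPM, a log2 fold change of -2.12 (SE 0.16, edgeR adjusted p = 2.06e-06). FANCG (ENSG00000221829.11), which holds FANCA in the complex, went from 36.6, 34.6 and 33.4 CPM to 10.96, 10.5 and 9.20 CPM, a log2 fold change of -1.84 (SE 0.07). FANCA changed by -1.64, from 59.1, 55.9 and 60.8 CPM to 20.1, 19.8 and 19.3 CPM. FANCB, which works beside the ligase subunit, changed by -1.74 and went from 16.2, 12.1 and 16.6 CPM to 5.09, 4.67 and 4.32 CPM.

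The other core genes moved less. FANCC changed by -1.19, from 16.7, 15.9 and 16.9 CPM to 7.33, 7.595 and 7.87 CPM. The ubiquitin ligase FANCL changed by -0.61 and the anchor FANCM by -0.98. FANCF (ENSG00000183161.6) moved least, at -0.19 (SE 0.07, edgeR adjusted p = 0.0283), with 15.9, 16.3 and 16.0 CPM against 14.6, 15.6 and 14.1 CPM. It is listed with 1 transcript.

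Downstream of the core, the substrates moved unequally. FANCI changed by -1.54, from 61.2, 55.3 and 63.2 CPM to 22.0, 21.7 and 21.2 CPM. Its partner FANCD2 changed by -0.61, from 28.2, 26.96 and 28.8 CPM to 20.2, 18.6 and 18.8 CPM. The helicase BRIP1 changed by -1.55, from 16.9, 16.5 and 16.9 CPM to 6.71, 5.76 and 5.51 CPM.

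The 3 members of the complex that dissolves joined DNA molecules all fell, and its topoisomerase TOP3A, which is no member, changed by -0.57. The helicase BLM changed by -1.80, from 14.1, 13.1 and 13.7 CPM to 4.25, 4.04 and 4.04 CPM. Its cofactor RMI1 changed by -1.48, from 17.5, 16.9 and 17.8 CPM to 6.68, 6.52 and 6.36 CPM. RMI2 changed by -1.64, from 7.32, 8.40 and 7.53 CPM to 2.60, 3.15 and 2.04 CPM.

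Among the nucleases that cut such joints, EME1 changed by -1.06, from 10.8, 9.70 and 9.51 CPM to 4.73, 4.87 and 5.55 CPM. Its catalytic partner MUS81 changed by -0.39. The scaffold SLX4 had a log2 fold change of -0.14 that was not called (edgeR adjusted p = 0.133). POLQ, the polymerase of an alternative end-joining route, changed by -1.73, from 65.7, 51.9 and 65.0 CPM to 19.9, 20.2 and 17.6 CPM.

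Across 13 alternative fits, 31 of the 37 HT-1080 calls held in every one. The exceptions are PALB2, RAD50, NBN, ATM, FANCF and MUS81: none of these 6 passed when the spread was shared with HEK-293T over all 12 libraries, and ATM also missed the threshold with no filter on low counts (edgeR adjusted p = 0.167) and without siHNRNPH1 replicate 1 (0.0669) or 3 (0.0654). FANCF missed it with library size only (edgeR adjusted p = 0.125), with DESeq2 (adjusted p = 0.0793) and without siNegative replicate 3 (0.0546) or siHNRNPH1 replicate 1 (0.0820) or 3 (0.1080).

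HEK-293T gave a different picture. With all libraries 3 members fell and none rose, against 4.88% and 5.12% of 19966 genes called lower and higher. At an unadjusted p under 0.05 there were 5, against 26.4% of all genes. FANCE went from 30.5, 30.7 and 29.9 CPM to 15.8, 15.1 and 15.1 CPM, a log2 fold change of -1.01 (SE 0.11, edgeR adjusted p = 0.00821). All 3 siHNRNPH1 libraries were close together and at about the same distance below the controls. FANCG went from 59.0, 56.1 and 60.7 CPM to 38.9, 41.0 and 43.4 CPM, a log2 fold change of -0.54 (SE 0.11, edgeR adjusted p = 0.0351). RAD54B went from 31.1, 31.3 and 31.4 CPM to 17.0, 22.5 and 23.8 CPM, a log2 fold change of -0.60 (SE 0.14, edgeR adjusted p = 0.0492). All 3 also fell in HT-1080. Each of the 3 calls missed the threshold without siNegative replicate 1, 2 or 3 or siHNRNPH1 replicate 2, with edgeR adjusted p of 0.0526 to 0.0769 for FANCE, and FANCG and RAD54B also without siHNRNPH1 replicate 3. Groups were apart in 9 members that were lower and 4 that were higher (EME1, FANCD2, FANCF and RAD51C), against 21.0% and 22.7% of all genes.

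Much of the spread in HEK-293T followed 1 library. Replicate 1 of siHNRNPH1 lay below both other siHNRNPH1 replicates for 32 members and above both for 7. The share of all genes that do so was not counted. This library stood apart across all genes (Pearson r of 0.965 and 0.962), and whether the count is particular to the members was not tested. ATM stood at 163, 163 and 164 CPM with siNegative and at 31.2, 160.4 and 170.3 CPM with siHNRNPH1. FANCB stood at 43.2, 40.9 and 41.6 CPM and at 9.55, 46.1 and 47.9 CPM. BRCA1 stood at 154, 154 and 148 CPM and at 72.3, 156 and 162 CPM. RAD51C went the other way, from 51.7, 50.8 and 50.9 CPM to 92.2, 61.7 and 65.8 CPM. The same library had the lowest HNRNPH1 of the 3, at 234 CPM, and its part in these differences was not tested.

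**Figure D3:**
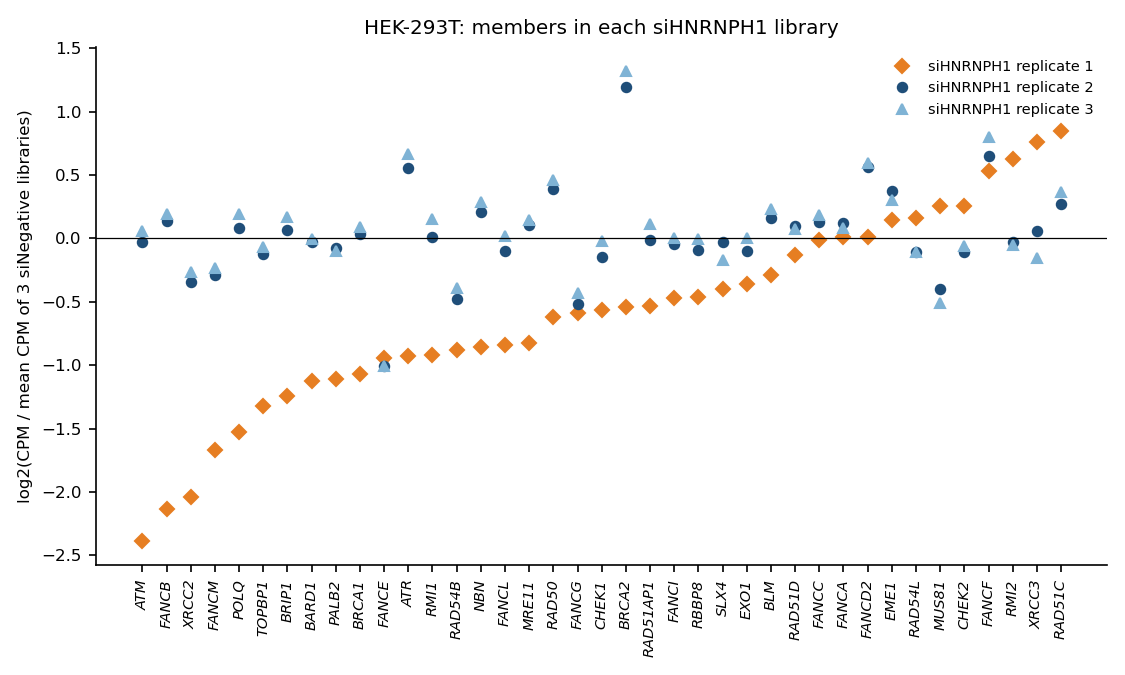
Log2 ratio of each member's CPM in the 3 HEK-293T siHNRNPH1 libraries to its mean over the 3 siNegative libraries, ordered by replicate 1. Replicate 1 (orange diamonds) lies below replicates 2 and 3 for 32 of 39 members, and FANCE lies near -1 in all 3 libraries. The share of all genes that lie below in this way was not counted.

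Leaving out replicate 1 gave 29 called members in HEK-293T, of which 12 were higher (30.4% of 20376 genes) and 17 lower (31.2%), and most changes were small. The median was -0.04, 26 members had an absolute log2 fold change under 0.2, and only BRCA2 and FANCE reached 1. BRCA2 stood at 61.0, 60.2 and 61.9 CPM with siNegative and at 139.9 and 153 CPM in the remaining siHNRNPH1 libraries, a log2 fold change of 1.20 (SE 0.04, edgeR adjusted p = 8.22e-17). Replicate 1 had 42.0 CPM, below every control, and with it the value was 0.82 and not called (edgeR adjusted p = 0.302). Other members called higher without it included FANCF (0.67), ATR (0.55), FANCD2 (0.52) and RAD50 (0.37). Those called lower included FANCE (-1.07), FANCG (-0.53), MUS81 (-0.51), RAD54B (-0.49), XRCC2 (-0.36) and FANCM (-0.32). BRCA1 was at 0.01 and BARD1 at -0.08, neither of them called. These values rest on 2 siHNRNPH1 libraries, replicates 2 and 3.

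The response of the lines was then compared directly, as the interaction of line and siRNA over the 12 libraries. It was called for 25 members, all of them more negative in HT-1080, against 10.8% of 21276 genes more negative and 8.13% more positive. The largest difference was that of BARD1, at -2.25 (SE 0.32, edgeR adjusted p = 8.16e-04), followed by XRCC3 at -2.20, BRCA2 at -2.06, RMI2 at -1.92 and RAD54L at -1.92. The smallest p among the members belonged to FANCA, with a difference of -1.76 (SE 0.11, edgeR adjusted p = 5.52e-06). FANCE fell in both lines, and its further fall in HT-1080 was a difference of -1.18 (edgeR adjusted p = 0.00335). BRCA1 (-0.81, edgeR adjusted p = 0.0833) and XRCC2 (-1.05, edgeR adjusted p = 0.141) missed the threshold. Across 18 alternatives 21 of the 25 held in every one, the others being RAD51D, CHEK1, BRIP1 and POLQ. POLQ (edgeR adjusted p = 0.0346) missed the threshold when any 1 library other than replicate 1 of HEK-293T siHNRNPH1 was left out (0.0549 to 0.0895). BRIP1 (edgeR adjusted p = 0.0238) missed it without HEK-293T siNegative replicate 1 or 2, any HT-1080 siNegative replicate, or HT-1080 siHNRNPH1 replicate 2 or 3 (0.0512 to 0.0676).

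Without that replicate, 35 members were called, again all more negative in HT-1080, and all 25 were among them. The background was then 26.4% of 19447 genes more negative and 22.7% more positive. The difference was -1.07 for BRCA1 and -2.43 for BRCA2. ATM, MUS81, RAD50 and SLX4 were not called. Of the members called in both lines, 16 were lower in both, against 16.7% of the 15070 genes tested in both. Another 10 were lower in HT-1080 but higher in HEK-293T, against 7.57%: BRCA2, RAD51C, NBN, FANCB, FANCC, FANCF, FANCD2, BLM, EME1 and POLQ. Their log2 fold changes in HEK-293T ran from 0.08 for POLQ to 1.20 for BRCA2. Those of FANCC (0.10), FANCB (0.11), BLM (0.14) and NBN (0.19) were also small. None of these 10 was called in HEK-293T with all libraries. RAD50 was higher in both.

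**Figure D4:**
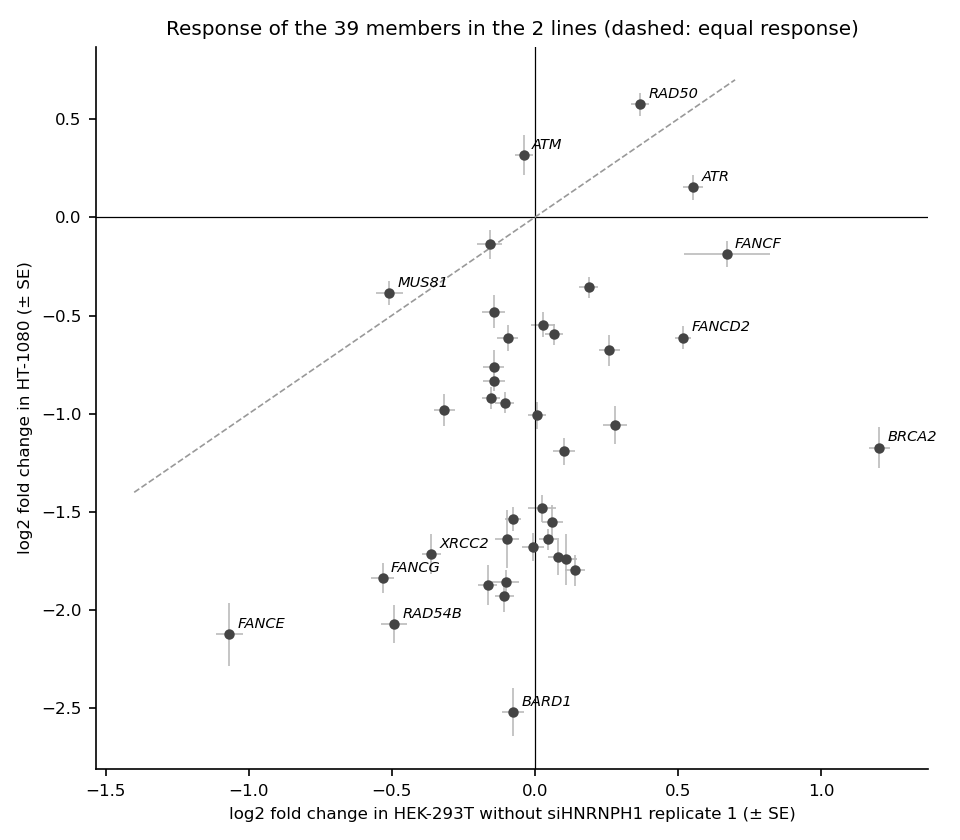
Log2 fold change of the 39 members in HT-1080 (y axis) against HEK-293T without siHNRNPH1 replicate 1 (x axis), with SE bars of the edgeR fits. Points below the dashed line had a more negative log2 fold change in HT-1080 than in HEK-293T. BRCA2 is at 1.20 and -1.17, FANCE at -1.07 and -2.12, RAD50 at 0.37 and 0.57.

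The members also started from different levels in the lines. In the siNegative libraries 35 members had a higher CPM in every HEK-293T library than in any HT-1080 library, XRCC3, FANCF and MUS81 a lower one, and ATR overlapped. Of all 21276 genes 52.0% were likewise higher in HEK-293T and 34.7% in HT-1080. FANCF was at 0.91 to 1.20 CPM in HEK-293T and 15.9 to 16.3 CPM in HT-1080. The lines were quantified in separate deposited tables, so these levels were not tested. The summed CPM of the members was 1272 to 1411 in HT-1080 siNegative and 865.7 to 878 in siHNRNPH1 libraries. In HEK-293T it was 3189 to 3212 with siNegative and 2169 to 3525 with siHNRNPH1.

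Other repair genes went in both directions in HT-1080. Of 52 further recombination and Fanconi genes, 31 fell and 8 rose, with a median of -0.43. CLSPN, the adaptor that brings CHEK1 to ATR, had the lowest value at -2.32, followed by UBE2T, the ubiquitin-conjugating enzyme of FANCL, at -1.99. RAD9A (0.57) and ETAA1 (0.49), which serve ATR activation, rose most. Of 15 end-joining genes 10 fell and 2 rose (median -0.40), with PAXX at -0.92 and SHLD3 at -0.50 lowest and SHLD1 at 0.62 and SHLD2 at 0.61 highest. Of 24 excision repair genes 12 fell and 7 rose (median -0.18), with NEIL3 at -1.64 and XRCC1 at -0.91 lowest and ERCC6 at 0.90 and XPC at 0.65 highest. Of 7 mismatch repair genes 4 fell, among them MSH6 (-0.80), and PMS2 rose by 0.20. Whether these lists differ from the members was not tested.

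Proliferation genes moved with the members in HT-1080. All 22 genes of a list for S phase and cell division fell, with a median of -1.86, and their summed CPM was 2512 to 2570 with siNegative and 832.8 to 883.7 with siHNRNPH1. CCNE2, a cyclin of S-phase entry, was at -2.61 and MCM10, a replication factor, at -2.31. Of 11 E2F and RB family genes 10 fell. E2F1 stood at 33.9, 39.02 and 34.95 CPM with siNegative and at 6.13, 6.49 and 5.48 CPM with siHNRNPH1, a log2 fold change of -2.64 (SE 0.09, edgeR adjusted p = 1.37e-08). E2F2 went from 7.65, 7.07 and 7.598 CPM to 0.31, 0.40 and 0.35 CPM, with a log2 fold change of -4.44. The other called E2F genes were E2F5 (-1.61), E2F8 (-1.30), E2F6 (-0.94), E2F4 (-0.46), E2F7 (-0.30) and E2F3 (-0.20). Their part in the members' fall was not tested.

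In HEK-293T fewer genes of these lists were called with all libraries. Of the 22 proliferation genes 3 fell and none rose, among them CDC45 (-0.87, and -1.11 without replicate 1) and RRM2 (-0.63, and -0.59 without it), and without replicate 1 of siHNRNPH1 17 fell and 1 rose, with a median of -0.22. Of the 11 E2F and RB family genes only E2F5 was called, at -1.24, and E2F1 was at -0.02 (edgeR adjusted p = 0.958). Without replicate 1, 8 of the 11 fell and 1 rose, with a median of -0.28, E2F5 at -1.405 and E2F1 at -0.31. Of the further repair genes, RAD9A (1.34, and 0.93 without replicate 1) and MLH3 (1.15, and 1.26 without it) rose and none fell. Without replicate 1, 17 of the 52 further recombination and Fanconi genes were called higher and 24 lower. Of all genes in that fit, 30.4% were called higher and 31.2% lower. The summed CPM of the proliferation genes was 5140 to 5190 with siNegative and 4546 to 4702 with siHNRNPH1, replicate 1 included. The interaction was called for 20 of the 22, all more negative in HT-1080 (10.8% of all genes), and for all 22 without replicate 1 (26.4%).

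The promoter windows were also read for E2F-like sequences, as a description. RefSeq windows (GRCh38.p14, 250 bases before to 50 after the annotated start) were matched for 35 members, all but FANCI, NBN, RAD54B and RMI2. The letters searched on both strands were TTTCCCGC, TTTGGCGC, TTTCGCGC, TTTGGCGG and TTTCCCGG. They were in 7 of the 35 windows (20.0%) and in 4.8% of all 27305 windows. The sequence CCAAT, which is bound by NF-Y, was in 42.9% of the members' windows and 35.7% of all, and TTTGAA in 11.4% and 15.4%. The stretches that hold a match are shown on the strand of the gene, because they let members that fell be read beside members that did not. Capitals mark the match.
EXO1, chr1:241848197-241848226 (+): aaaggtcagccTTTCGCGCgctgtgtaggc
FANCD2, chr3:10026424-10026453 (+): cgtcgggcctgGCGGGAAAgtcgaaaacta
TOPBP1, chr3:133661930-133661959 (-): ccgcgcggttgGCGCGAAAgtcggttcccg
XRCC2, chr7:152676102-152676131 (-): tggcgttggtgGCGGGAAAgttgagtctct
FANCC, chr9:95317863-95317892 (-): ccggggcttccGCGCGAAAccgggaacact
FANCC, chr9:95317737-95317766 (-): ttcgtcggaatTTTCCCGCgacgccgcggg
RAD50, chr5:132556913-132556942 (+): cgggactctgaTTTCCCGGcgtgccccagg
ATR, chr3:142578926-142578955 (-): cctgacgcgacCCGGGAAActtgaccgacg
EXO1, FANCD2, TOPBP1, XRCC2 and FANCC fell in HT-1080, RAD50 rose, and ATR was not called. The other members with a window had no E2F-like match, whether they fell, as BARD1, FANCE and XRCC3 did, or did not, as ATM and SLX4. XRCC3 had 5 matches to CCAAT. All windows were counted without matching for base composition. A match describes the letters only, and a part of E2F in these changes was not tested.

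The tables also give each transcript's share of its gene, as RSEM assigned the reads, and changes in share were tested with limma diffSplice (BH-adjusted over genes). In HEK-293T usage was called for 6 of 38 testable members (RAD51D, RAD54B, FANCA, FANCE, FANCG and EME1), against 9.59% of 13018 genes. Without replicate 1 of siHNRNPH1 it was called for 21, against 41.6%. In HT-1080 it was called for 7 of 35 (NBN, EXO1, ATM, CHEK1, TOPBP1, FANCC and FANCG), against 21.2% of 10752 genes. On simulated data a large part of such calls fell on unchanged genes, so the values by library are given beside the counts. Unless stated otherwise, a transcript named below had its gene's smallest p or largest shift in a line where usage was called. It was chosen for that from the same libraries. Groups apart and a low permutation p in that line are favoured by this choice and add little support of their own.

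FANCE in HEK-293T had the clearest shift. Transcript ENST00000229769.3 held 48.6%, 48.3% and 50.3% of the gene with siNegative and 8.70%, 4.17% and 1.82% with siHNRNPH1 (limma diffSplice adjusted p = 1.16e-09). The exact two-sided permutation p was 0.1, the smallest that 3 against 3 libraries can give. The same libraries had served to choose the transcript. ENST00000696264.1 moved the other way, from 3.7%, 6.5% and 5.9% to 22.8%, 24.9% and 24.8%, and was also chosen after its values were seen. The FANCE call held in all 9 alternatives, edgeR's diffSpliceDGE included. In HT-1080 ENST00000229769.3 held 61.2%, 69.0% and 53.1% with siNegative and 51.0%, 0% and 51.3% with siHNRNPH1, with no call at FANCE levels of 1.47 to 2.46 CPM.

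FANCG usage was called in both lines. ENST00000378643.8 held 37.6%, 29.4% and 30.5% in HT-1080 siNegative and 10.2%, 10.2% and 6.65% in siHNRNPH1 libraries (limma diffSplice adjusted p = 0.00366). In HEK-293T it held 14.2%, 9.67% and 8.60% and was listed at 0 in all 3 siHNRNPH1 libraries, a transcript difference that was not called (limma diffSplice adjusted p = 0.104). There ENST00000448890.2 passed, with 14.8%, 18.1% and 20.0% against 3.71%, 1.22% and 0.21% (limma diffSplice adjusted p = 7.20e-04). The gene call was lost in HEK-293T without siNegative replicate 3 (limma diffSplice adjusted p = 0.0515), and in HT-1080 without siNegative replicate 1 or siHNRNPH1 replicate 3 and with diffSpliceDGE (adjusted p = 0.819).

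Of the 5 checkpoint members, usage was called for CHEK1, TOPBP1 and ATM in HT-1080 and not for ATR or CHEK2. ENST00000532449.6 of CHEK1 held 10.3%, 12.2% and 14.9% with siNegative and 27.6%, 22.6% and 30.1% with siHNRNPH1 (limma diffSplice adjusted p = 0.00207). ENST00000642236.1 of TOPBP1 held 5.45%, 7.46% and 7.93% and then 13.7%, 11.2% and 11.4% (limma diffSplice adjusted p = 0.00201). The exact permutation p was 0.1 for each, in the libraries that had served to choose these transcripts. In HEK-293T the same transcripts were not called, at means of 5.73% and 3.84% for CHEK1 and 12.2% and 8.85% for TOPBP1. The gene call of CHEK1 was lost without siNegative replicate 1, that of TOPBP1 without siHNRNPH1 replicate 1, and both with diffSpliceDGE (adjusted p = 0.608 and 0.803).

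**Figure D5:**
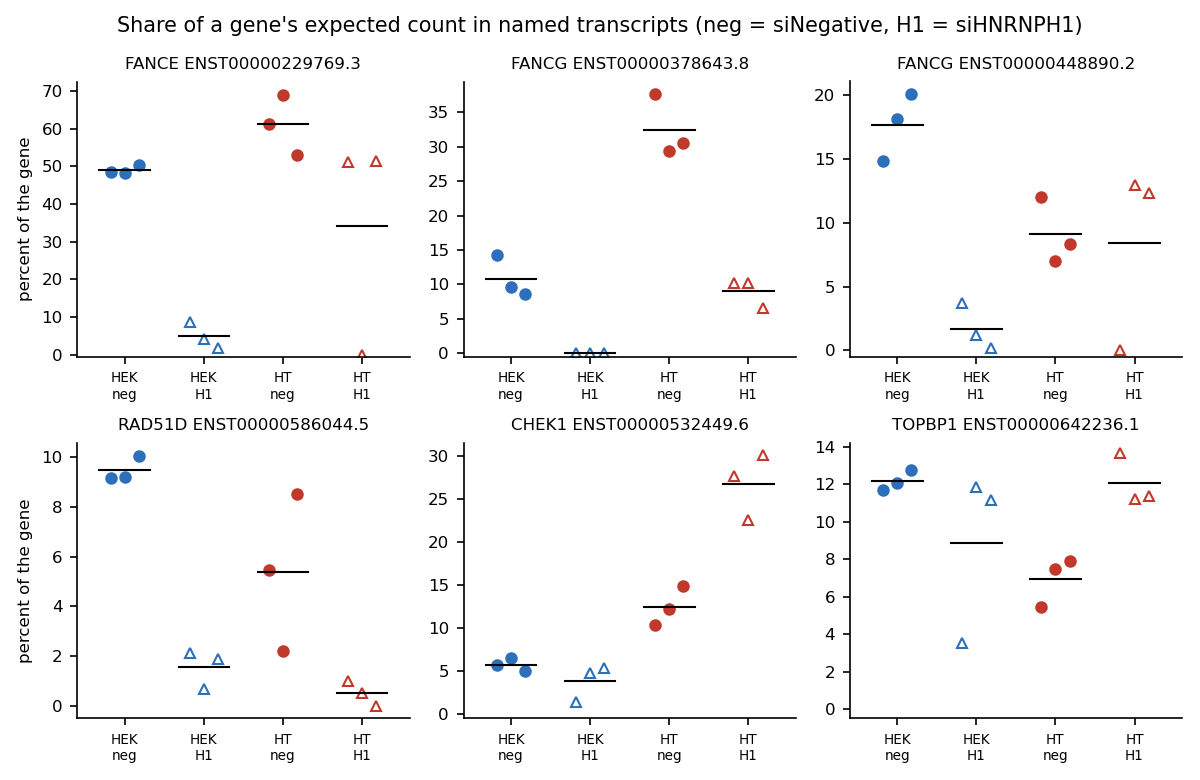
Percent of a gene's expected count assigned to 6 named transcripts in each library (circles siNegative, triangles siHNRNPH1, blue HEK-293T, red HT-1080, bars group means). The transcripts were chosen by their values in these libraries. ENST00000229769.3 of FANCE drops from 48.3% to 50.3% to at most 8.70% in HEK-293T, and ENST00000532449.6 of CHEK1 is above 22% in all 3 HT-1080 siHNRNPH1 libraries.

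RAD51D usage in HEK-293T was called with ENST00000586044.5 at 9.14%, 9.18% and 10.1% against 2.13%, 0.69% and 1.88%, and with ENST00000335858.11 at 6.34%, 6.61% and 6.79% against 23.3%, 15.6% and 14.7%. Its gene call was lost with diffSpliceDGE (adjusted p = 0.15). RAD54B transcript ENST00000297592.5 held 3.47%, 3.93% and 5.25% and then 11.3%, 13.9% and 14.2%. ENST00000568369.6 of FANCA went from 5.95%, 8.78% and 4.92% to 2.75%, 1.72% and 1.99%. ENST00000510246.1 of EME1 went from 6.29%, 3.96% and 3.79% to 0.49%, 0.38% and 0.14%. The gene calls of RAD54B, FANCA and EME1 were lost in 6, 7 and 3 of 9 alternatives, among them for each the fit without siNegative replicate 1.

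Of the remaining HT-1080 calls, ENST00000697310.1 of NBN held 6.16%, 1.40% and 4.33% with siNegative and 10.4%, 11.7% and 9.19% with siHNRNPH1. ENST00000452508.6 of ATM held 7.39%, 0% and 2.99% and then 10.98%, 8.77% and 11.9%. ENST00000490972.7 of FANCC held 3.79%, 5.90% and 1.93% and then 8.79%, 14.1% and 7.57%. In these 3 the groups did not overlap. ENST00000348581.9 of EXO1 held 48.3%, 46.3% and 42.9% and then 46.0%, 22.2% and 14.5%, so that replicate 1 stayed with the controls. Each of these 4 calls was lost in 4 or more of 9 alternatives. The interaction of usage between lines, added after the data had been seen, was called for FANCA and MUS81 (2 of 38, against 3.39% of 13703 genes) and for 8 without replicate 1 of HEK-293T siHNRNPH1 (against 14.2%).

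The IsoSeq pools list transcript models without read counts, 1 pool per group, so no test was possible. Loci were placed for 35 members, all but FANCI, NBN, RAD54B and RMI2. In HT-1080 the members had 201 of 72186 models with siNegative (27.8 per 10000) and 115 of 68078 with siHNRNPH1 (16.9 per 10000). In HEK-293T they had 415 of 64705 (64.1 per 10000) and 624 of 94847 (65.8 per 10000). At CHEK1, the splice junction across chr11:125626643-125626748 was found in 3 of 17 HT-1080 models that span it with siNegative (17.6%). With siHNRNPH1 it was found in 5 of 11 (45.5%), and in HEK-293T in 23.8% and 28.0% of the models. The exact Clopper-Pearson 95% intervals of the HT-1080 shares run from 3.8% to 43.4% and from 16.7% to 76.6%. They cover counting error only, and this junction was chosen after its values were seen. Models without it can join another upstream exon end to the same downstream end, so the shares do not measure intron retention. The junction across chr11:125626013-125626748 was in 11 of 12 HT-1080 models that span it with siNegative and in 5 of 5 with siHNRNPH1. FANCE had 1 and 0 models in HEK-293T and 3 and 0 in HT-1080 with siNegative and siHNRNPH1.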

How the data were processed

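The deposited short-read tables hold expected counts per transcript from RSEM, per the submitters' processing notes, which also name genome build GRCh38.p13. The aligner, annotation release and strandedness are not given in the sources used here, so reads of overlapping genes, and of near copies, may be shared between them. The deposited IsoSeq files hold positions of collapsed transcript models, per the file headers and names, with no counts. For each gene the expected counts of its transcripts were added and the sum was rounded. Genes passing filterByExpr were tested with edgeR 4.0.16 (TMM, robust quasi-likelihood, Benjamini-Hochberg over all genes), within each line on 6 libraries and as a line by siRNA interaction on 12. Usage was tested with limma 3.58.1 (voom, diffSplice, Simes per gene), and the count tests were also run with DESeq2 1.42.0. Both scripts were tested on simulated data. Exact permutation tests are two-sided. IsoSeq models were placed by RefSeq gene spans of GRCh38.p14, a patch of the same assembly (a share of at least 0.8 of the model inside).

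Members are the 39 genes of the named list, and all are reported. Library values are given for members that were called with a log2 fold change of 1 or more in size, or with called usage, and others where they help. Of other lists, the 2 called genes with the largest change in each direction and line are named, with HNRNPH1 and the E2F genes; TOP3A and the keratins were named after their values were seen. The members and lists were chosen with earlier results of these data known. A result of 1 gene that this rule names is not reported here.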

Additional observations from a re-analysis of the deposited data

Results flagged for a closer look

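For 25 members the response to knockdown differed between the lines by the interaction test over 12 libraries (edgeR adjusted p under 0.05), and all were more negative in HT-1080. The values are the log2 fold change in HT-1080 minus that in HEK-293T. In the BRCA group and among the mediator paralogs the difference was -2.25 for BARD1, -2.06 for BRCA2, -1.26 for RAD51C, -0.61 for RAD51D and -2.20 for XRCC3. Among strand exchange, resection and checkpoint genes the difference was -1.59 for RAD51AP1, -1.92 for RAD54L, -1.54 for RAD54B, -0.81 for RBBP8, -1.83 for EXO1, -0.64 for CHEK1 and -0.86 for CHEK2. In the Fanconi pathway the difference was -1.76 for FANCA, -1.34 for FANCC, -1.18 for FANCE, -0.90 for FANCF, -1.37 for FANCG, -1.06 for FANCD2, -1.42 for FANCI and -1.36 for BRIP1. In the BLM complex, the nucleases and POLQ the difference was -1.89 for BLM, -1.33 for RMI1, -1.92 for RMI2, -1.38 for EME1 and -1.51 for POLQ. All 25 were also called without HEK-293T siHNRNPH1 replicate 1.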

How the results depend on the processing

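On leaving out 1 library, the log2 fold change of these members in HEK-293T, none of them called with all libraries, took both signs: -0.45 to 0.01 for BRCA1, -0.04 to 0.03 for RAD51D, -0.10 to 0.45 for XRCC3, -0.16 to 0.03 for RAD54L, -0.06 to 0.37 for RAD50, -0.32 to 0.07 for MRE11, -0.26 to 0.19 for NBN, -0.04 to 0.55 for ATR, -0.14 to 0.10 for CHEK2, -0.64 to 0.11 for FANCB, -0.48 to 0.06 for BRIP1, -0.07 to 0.14 for BLM, -0.41 to 0.03 for RMI1, -0.10 to 0.33 for RMI2 and -0.55 to 0.08 for POLQ. Signs also turned in HEK-293T with voom sample quality weights (RAD51D at 0.03, XRCC3 at -0.06, MRE11 at 0.05, NBN at 0.17, CHEK2 at -0.15, FANCB at 0.08, BRIP1 at 0.03, RMI2 at -0.09 and POLQ at 0.05), with library size only (RAD51D at 0.02), with the spread shared over all 12 libraries (RAD51D at 0.05 and RAD54L at 0.03) and with no filter on low counts (CHEK2 at -0.01 and BLM at -0.00). The uncalled differences between lines ran on leaving out 1 library from -0.45 to 0.11 for ATR, -0.03 to 0.07 for SLX4 and -0.45 to 0.07 for MUS81, and turned sign with voom sample quality weights (SLX4 at -0.09 and MUS81 at 0.09) and the replicate block (ATR at 0.00). The cause was not tested.

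The number of members called in HEK-293T, 3, became 1 with no filter on low counts, 25 with voom sample quality weights (9 higher, 16 lower), 0 with a replicate block (4 at an unadjusted p under 0.05), 7 with the spread shared over all 12 libraries (4 higher, 3 lower) and 0 to 29 on leaving out 1 library. In HT-1080 the count, 37, stayed between 31 and 39, and for the difference, 25, between 22 and 35. Usage calls in HEK-293T, 6, ranged from 3 to 21 and in HT-1080, 7, from 4 to 7 on leaving out 1 library, with 1 in HT-1080 by diffSpliceDGE. Calls over all genes moved too. In HEK-293T they went from 1997 of 19966 genes to 12553 of 20376 without siHNRNPH1 replicate 1. For most other alternatives no share of all genes is set beside these counts, so whether the moves are particular to the members cannot be told. Same-numbered replicates showed little shared deviation (r of 0.087, 0.098 and 0.023 in HEK-293T, -0.002, 0.085 and 0.032 in HT-1080). In HEK-293T each siNegative library correlated best with its own number, but siHNRNPH1 replicate 3 correlated best with siNegative replicate 2 (0.063). In HT-1080 not every library correlated best with its own number. With the replicate block 38 members were called in HT-1080 and 23 for the difference, and usage in 7 members of each line. Scaling by library size alone moved the median difference of all genes from -0.069 to 0.041. In HT-1080 the low CPM of FANCE, BARD1 and RMI2 limits what their transcript shares can show.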
